A study of Mus musculus with 48 samples.

Results

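Airspace macrophages of mice lacking Siglec-F were compared between the naive state and 7 days after bleomycin, across all expressed genes. Siglec-F, encoded by Siglecf, sits on alveolar macrophages and eosinophils, binds sialic acids and has inhibitory motifs in its cytoplasmic tail. The comparison rested on 6 of the 24 mice of the series, chosen by their labels. They were 3 male knockout (KO) mice sampled 7 days after 2.5 units/kg of bleomycin given into the trachea, and 3 male naive KO mice, labelled as given saline and marked day 0. All 6 carried the Siglec-F deletion. The sources used here do not give the strain, the age or the deleted stretch of the gene. The labels list no KO mice sampled 7 days after saline, so the drug, the instillation and the 7 days cannot be told apart. For reference, 3 naive wild type (WT) mice, 3 WT mice of day 7 and 3 KO mice at each of days 14 and 21 were measured in the same way. Each mouse gave 1 lavage sample. The p-values set differences against the spread between mice within groups, estimated over all 24 mice and not over the compared mice alone.

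Alveolar macrophages clear surfactant lipid and inhaled particles. They depend on the growth factor GM-CSF and on PPAR-gamma, a nuclear receptor that drives their lipid-handling genes. Bleomycin breaks DNA and injures the alveolar lining. In the days that follow, part of the resident population is lost, blood monocytes enter the airspace and become macrophages, and matrix is laid down in the tissue.

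Siglecf was nearly silent in both groups. The naive KO libraries held 12, 7 and 25 Siglecf counts and the day 7 KO libraries 6, 9 and 2, against 12375 to 20368 counts in naive WT libraries. The 6 KO libraries held 34537505 to 41220913 counts each. On the first principal component of all 12634 tested genes, which held 57.5% of the variance, the naive KO mice lay between -58.1 and -54 and the day 7 KO mice at 33.1, 38.7 and 19.6. Mouse 3 of day 7 thus lay nearest the naive mice. It was also the day 7 mouse nearest to the naive mean for 55.9% of the genes called higher and 61.2% of those called lower. Levels are given as CPM, counts scaled to library size by edgeR, for mice 1, 2 and 3 in that order. A gene was called when its Benjamini-Hochberg adjusted p from edgeR's quasi-likelihood test was under 0.05 over all tested genes.

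The sources used here do not say how macrophages were sorted out from the lavage, so genes that mark other cells were read first. Over all tested genes 19.7% were called higher and 14.4% lower. Of 33 tested T and NK cell genes, 29 rose and 1, Cd2, fell. Without Cd2 their summed level was 1.33 to 2.72 CPM in naive mice and 65.6 to 95 CPM at day 7, and with it 304 to 401 CPM and 174 to 186 CPM. Among them Cd8a, Zap70, Gzmb, Nkg7 and 11 other genes held 0 counts in all naive KO libraries. Such genes were kept for testing through groups where they were higher, and could only rise. With the compared groups filtered and fitted alone, 24 genes of the list were tested, of which 23 rose and 1 fell. Zap70, a kinase of the T cell receptor, was at 0.963, 1.19 and 1.27 CPM at day 7. For other cell types 2 sums were read, one over the whole list and one over members with at most 20 CPM in naive mice. That limit leaves out abundant members of which some fell, so the low sums favour a rise. The low sums were higher at day 7 for dendritic cells (31.2 to 35.4 CPM against 83.9 to 113 CPM), neutrophils (17.1 to 19.1 against 34.2 to 42.1), epithelium (31.4 to 41.4 against 235 to 422) and endothelium (1.88 to 2.9 against 33 to 51). Over the whole lists the sums were 1650 to 1800 CPM against 2050 to 2160 CPM for dendritic cells and 348 to 441 against 478 to 671 for epithelium. The whole sums overlapped for neutrophils (238 to 304 against 283 to 306) and endothelium (489 to 701 against 589 to 729). Wdfy4 and Sirpb1b of the dendritic, Epcam of the epithelial and Calcrl and Vwf of the endothelial list were left out of the low sums and called lower. Fibroblast genes, all at most 20 CPM, summed to 3.72 to 4.92 against 20.9 to 29.5. The low epithelial sum was mostly Pdpn, and the fibroblast sum mostly Gpx3, which macrophages can express too. The sum for B and plasma cells without Cd22 was 0.253 to 0.604 CPM against 1.27 to 2.85 CPM (197 to 210 against 88.5 to 124 with it), and that for eosinophils without Siglecf 2.58 to 4.35 against 9.29 to 12. The globin genes Hba-a1 and Hbb-b1 mark red cells, and each has near copies of its own that can share its reads. They showed a split: Hba-a1 was at 0, 0 and 0.0231 CPM in naive mice and at 40.6, 1.11 and 39.2 CPM at day 7. Mouse 2 was thus low for globin and mice 1 and 3 high. The part of other cells in the results below was not tested.

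**Figure D1:**
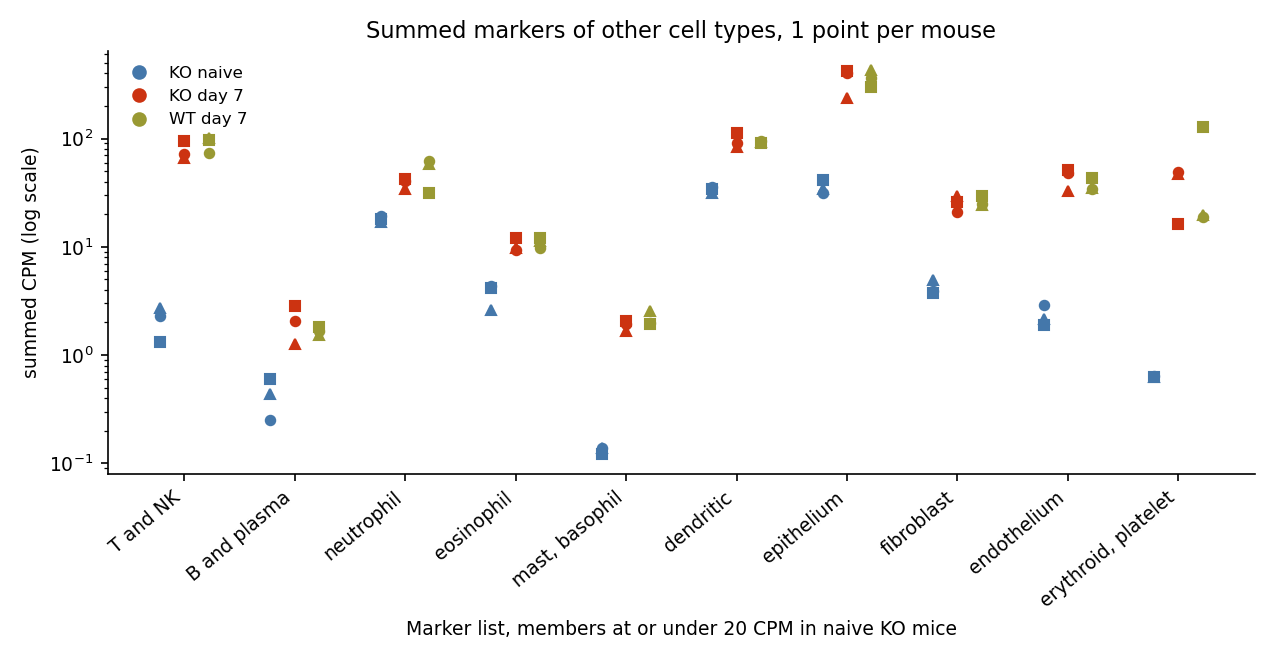
Summed level in CPM, on a log axis, of marker genes of other cell types in KO naive, KO day 7 and WT day 7 mice, with 1 point per mouse and members above 20 CPM in naive mice left out. Leaving out members abundant in naive mice favours a rise. In KO mice the T and NK cell sum stood at 1.33 to 2.72 CPM in naive mice and at 65.6 to 95 CPM at day 7.

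The response was broad. Of 12634 tested genes, 4308 (34.1%) were called, 2485 higher (19.7%) and 1823 lower (14.4%) at day 7, and the median log2 fold change of all tested genes was 0.02. The 3 mice of day 7 lay wholly above the 3 naive mice for 3671 genes (29.1%) and wholly below for 3175 (25.1%). Gains were larger than losses: among called genes 1297 were at least 2-fold higher and 503 at least 2-fold lower, and at 8-fold these counts were 737 and 49. These shares are the background for each gene group described here.

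Several of the highest genes were not read at all in naive mice. Ly6a, which encodes the surface protein Sca-1 and has close relatives that can share its reads, held 0 counts in the naive libraries and 9.94, 34.3 and 11.6 CPM at day 7, at least 798-fold higher when set against a floor of 3 counts over the group. Tmem119, a membrane protein used as a marker of microglia, held 0 counts and then 16.8, 17.9 and 7.42 CPM, at least 604-fold higher. Gdf3, a ligand of the TGF-beta family, was at 0 and then at 9.5, 18.4 and 4.94 CPM, at least 472-fold higher. In these 3 genes mouse 3 was the lowest or the second lowest of the day 7 mice, and all 3 mice were above every naive mouse. Cd38, an enzyme that breaks down NAD, was at 0 in naive mice too, and then at 3.17, 10.8 and 1.46 CPM, at least 222-fold higher, and it was not called in limma-voom (adjusted p 0.098). By total gain in CPM the leading genes included the saposin precursor Psap, at 6788, 6668 and 6973 CPM and then 12170, 11520 and 10720 CPM.

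At the other end, Dnah11, a dynein heavy chain, went from 6.55, 16.7 and 11.7 CPM to 0.182, 0.237 and 0.138 CPM, and Itgad, the integrin subunit alpha D, from 12.2, 27 and 22.2 CPM to 0.573, 0.712 and 1.71 CPM. The log2 fold change of Itgad was -4.36 (SE 0.59, adjusted p 1.1e-05). Acaa1b, a peroxisomal thiolase, stood at 246, 194 and 200 CPM in naive mice and at 9.34, 4.88 and 10.1 CPM at day 7. Fabp1, a fatty acid-binding protein, stood at 149.9, 143 and 157 CPM and then at 8.98, 5.28 and 9.02 CPM. Each of these 4 genes was lower in every day 7 mouse than in every naive mouse.

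**Figure D2:**
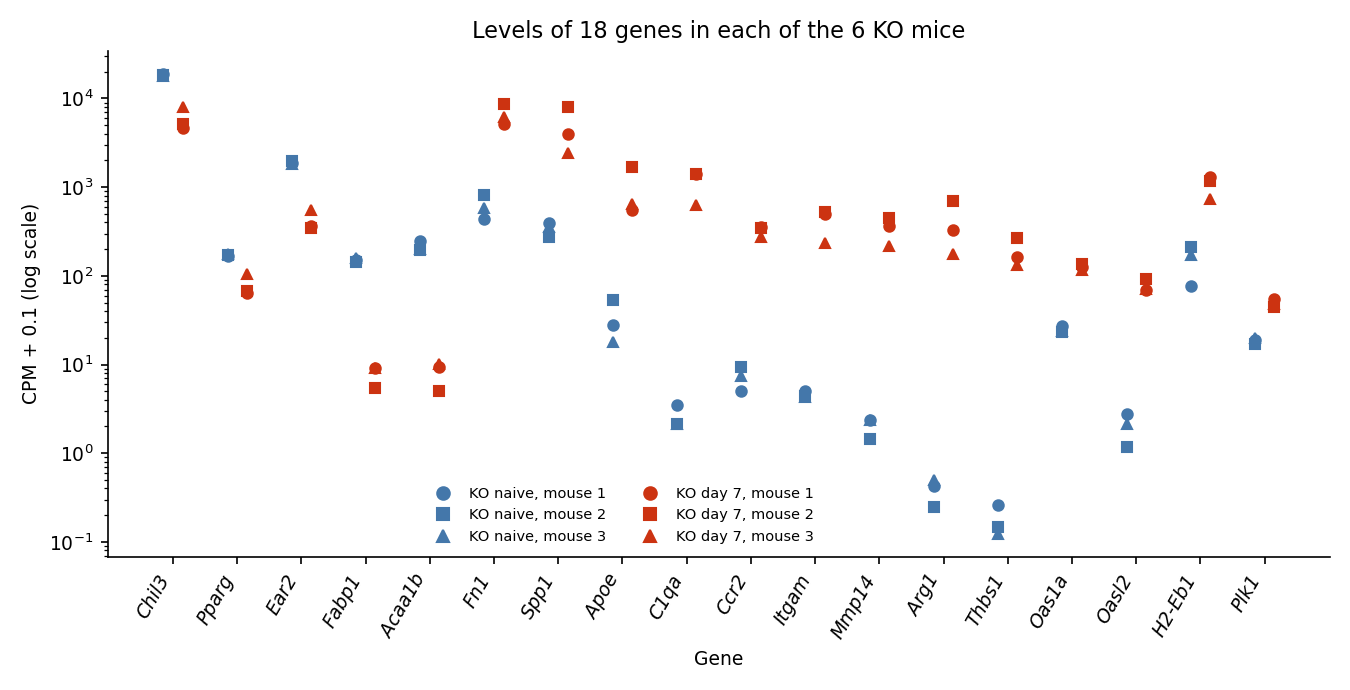
Level of 18 genes in each KO mouse, as CPM plus 0.1 on a log axis, with naive mice in blue, day 7 mice in red and 1 marker shape per mouse number. The 5 genes at the left (Chil3 to Acaa1b) lie lower in all day 7 mice and the other 13 higher, and mouse 3 is often the day 7 mouse nearest the naive mice.

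Genes that mark resident alveolar macrophages fell in KO mice at day 7. Of 32 tested, 22 fell and 1 rose, and their median log2 fold change was -0.76. Chil3, a chitinase-like secreted protein, was at 19010, 18310 and 17930 CPM in naive mice and at 4592, 5159 and 7937 CPM at day 7, a log2 fold change of -1.64 (SE 0.27, adjusted p 7.7e-05). Pparg, which encodes PPAR-gamma, went from 166, 172 and 176 CPM to 64, 67.4 and 104 CPM (-1.13, SE 0.19, adjusted p 0.00013). Ear2, an eosinophil-associated ribonuclease that alveolar macrophages make and that is hard to tell from its near copies, went from 1854, 1979 and 1840 CPM to 368, 350.5 and 558 CPM (-2.15, SE 0.31). In all 3 genes the groups did not overlap, and mouse 3 kept the highest level of the day 7 mice. Abcg1, a cholesterol exporter, fell by 1.30 on the log2 scale, Kcnn3, a potassium channel, by 1.23, and Itgax, the integrin CD11c, by 0.75. Genes of the same group that were not called include Marco, a scavenger receptor (1046, 504 and 728 CPM, then 650.4, 878 and 662 CPM), and Car4, a carbonic anhydrase (516, 325 and 371 CPM, then 457, 590.5 and 552 CPM), both with overlapping groups. Fabp5, a fatty acid-binding protein, was the member that rose, from 372, 358 and 348 CPM to 904, 1045 and 574 CPM. In bulk RNA, fewer cells of a type and less RNA per cell cannot be told apart.

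The enzymes of fatty acid oxidation fell with them. Of 34 tested, 20 fell and 1, the enoyl-CoA hydratase Echs1, rose, with a median of -0.42. Acot2, a mitochondrial thioesterase, went from 41.3, 44.8 and 42.1 CPM to 12.7, 12.9 and 14.1 CPM, a log2 fold change of -1.69 (SE 0.20, adjusted p 2.2e-06). Acadm, the medium-chain acyl-CoA dehydrogenase, went from 87.7, 96.3 and 92.7 CPM to 50.2, 43.8 and 53.3 CPM, and Hadhb, the beta subunit of the trifunctional protein, from 180.1, 172 and 178 CPM to 102, 82.8 and 113 CPM. All 3 genes were lower in every day 7 mouse. Among 29 genes of fatty acid uptake and lipid storage, 17 fell and 5 rose (median -0.64). Cd36, a scavenger receptor that takes up fatty acids and oxidized lipoprotein, was at 594, 638 and 621 CPM in naive mice and at 152, 148 and 96.6 CPM at day 7 (-2.22, SE 0.35, adjusted p 5.2e-05). Mgll, the lipase that splits monoacylglycerol, fell by 1.12. Against this direction, Msr1, the class A scavenger receptor, rose from 24.4, 7.68 and 14.5 CPM to 466, 425 and 313 CPM (4.69, SE 0.42). Fabp3 rose as well, from 0.161, 0.121 and 0.0462 CPM to 5.67, 6.83 and 2.92 CPM.

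Genes of antioxidant defence and iron handling moved both ways: 15 of 34 fell and 7 rose (median -0.37). The 7 became 3 without mouse 1 of day 7 or mouse 2 of the naive mice, and 4 without naive mouse 1 or 3. Mgst1, a microsomal glutathione transferase, went from 227, 240.1 and 241 CPM to 104, 101 and 100.3 CPM. Mt1, a metallothionein, went from 442, 470 and 411 CPM to 166, 156 and 181 CPM, and catalase, Cat, fell by 0.86. Each of these was lower in every day 7 mouse. Slc11a1, the phagosomal metal transporter NRAMP1, rose from 20.5, 18.9 and 21.8 CPM to 149, 131 and 44.6 CPM, with mouse 3 well below the other two. Among 33 genes of glycolysis and its regulators, 22 rose and 2 fell (median 0.80). Pgam1, a phosphoglycerate mutase, stood at 197, 178 and 184 CPM and then at 596, 586 and 442 CPM (1.54, SE 0.22, adjusted p 1.5e-05), and Slc2a1, the glucose transporter GLUT1, at 32.3, 32.1 and 35.1 CPM and then at 84.2, 86.9 and 62.6 CPM. Every day 7 mouse was above every naive mouse for both.

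Genes of interstitial and monocyte-derived tissue macrophages showed the highest median of the macrophage groups described here. Of 22 tested, 20 rose and 1 fell, with a median log2 fold change of 6.81, or 6.50 when the 2 members at 0 in naive mice are set to their bound. C1qb, a chain of complement C1q, was at 1.4, 1.09 and 0.646 CPM in naive mice and at 889, 963 and 477 CPM at day 7 (9.53, SE 0.78, adjusted p 1.7e-08). Stab1, the scavenger receptor stabilin-1, was at 0.644, 0.725 and 0.415 CPM and then at 302, 342 and 141 CPM. Naive and day 7 mice were far apart for both, and mouse 3 was the lowest at day 7. Cx3cr1, the receptor of fractalkine, went from 0.575, 0.942 and 0.3 CPM to 121, 85.5 and 65.7 CPM. Mertk, a receptor for apoptotic cells, was the member that fell (240.1, 224 and 225 CPM, then 124, 163 and 170.4 CPM), and Adgre1, a surface antigen of mature macrophages, was not called (0.23, SE 0.15).

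Monocyte genes moved both ways. Of 24 tested, 13 rose and 4 fell (median 0.71). F13a1, the A subunit of coagulation factor XIII and a mark of classical monocytes, stood at 0.138, 0.169 and 0.231 CPM in naive mice and at 99.8, 131 and 65.5 CPM at day 7 (9.08, SE 0.59, adjusted p 2.6e-09). S100a4, a calcium-binding protein, went from 5.5, 7.03 and 7.2 CPM to 300.2, 270.2 and 196 CPM, and Ms4a4c from 0.345, 0.169 and 0.115 CPM to 25.2, 38 and 17.1 CPM. The groups did not overlap in these genes. Csf1r, the receptor of the macrophage growth factor CSF1, rose from 320.4, 313 and 319 CPM to 895, 952 and 754 CPM (1.45, SE 0.15). The 4 genes that fell were Treml4, Itgal, Spn and Mpeg1, of which Treml4 and Spn are known from patrolling monocytes, and Treml4 went from 53.5, 53.7 and 58.3 CPM to 14.4, 15.5 and 22.9 CPM. The call of Mpeg1 ended without mouse 1 or mouse 2 of day 7 (edgeR adjusted p 0.069 and 0.065). Lyz2, the lysozyme gene active in monocytes and macrophages alike, was not called (15820, 18910 and 17740 CPM, then 14320, 17890 and 19110 CPM).

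Integrins and adhesion receptors also moved both ways. Of 26 tested, 13 rose and 5 fell (median 0.66). Itgam, which encodes CD11b, the integrin of monocytes and recruited macrophages, was at 4.87, 4.35 and 4.25 CPM in naive mice and at 492, 524.1 and 233 CPM at day 7 (6.53, SE 0.53, adjusted p 1.7e-08). The shared partner chain Itgb2 was not called (2207, 2218 and 2338 CPM, then 1955, 2080 and 2021 CPM). Itga6, a laminin receptor chain, rose from 35.1, 38 and 36 CPM to 169, 178 and 132 CPM, and Itgb7, the chain that pairs with alpha 4 and alpha E, from 0.184, 0.507 and 0.577 CPM to 22.4, 20.2 and 20.4 CPM. Cd44, the hyaluronan receptor, fell by 1.04, from 2492, 2553 and 2437 CPM to 1176, 1137 and 1333 CPM.

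Among 37 transcription factors of macrophage and monocyte lineages, 10 rose and 9 fell (median -0.01). Maf rose from 0.437, 0.29 and 0.692 CPM to 29.6, 50.9 and 18.2 CPM (6.10, SE 0.66), and Runx3, a factor of lymphocytes and myeloid cells, from 0.069, 0.145 and 0.0231 CPM to 20.1, 25.9 and 13.7 CPM (7.93, SE 0.66). Irf4, a factor of dendritic cells and alternative macrophage activation, went from 2.48, 5.07 and 2.52 CPM to 15.9, 14.4 and 9.71 CPM. All day 7 mice lay above all naive mice for these. Hif1a, the oxygen-sensing factor that drives glycolysis genes, rose from 107, 110 and 115 CPM to 207, 254 and 194 CPM. Spi1, which encodes the myeloid factor PU.1, fell from 525, 516 and 506 CPM to 376, 397 and 385 CPM (-0.42, SE 0.08, adjusted p 0.00034). Batf3 and Stat6 fell too, by 1.80 and 0.50. Cebpa, needed for myeloid differentiation, was at 441, 512 and 488 CPM and then at 525, 496 and 415 CPM and was not called.

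**Figure D3:**
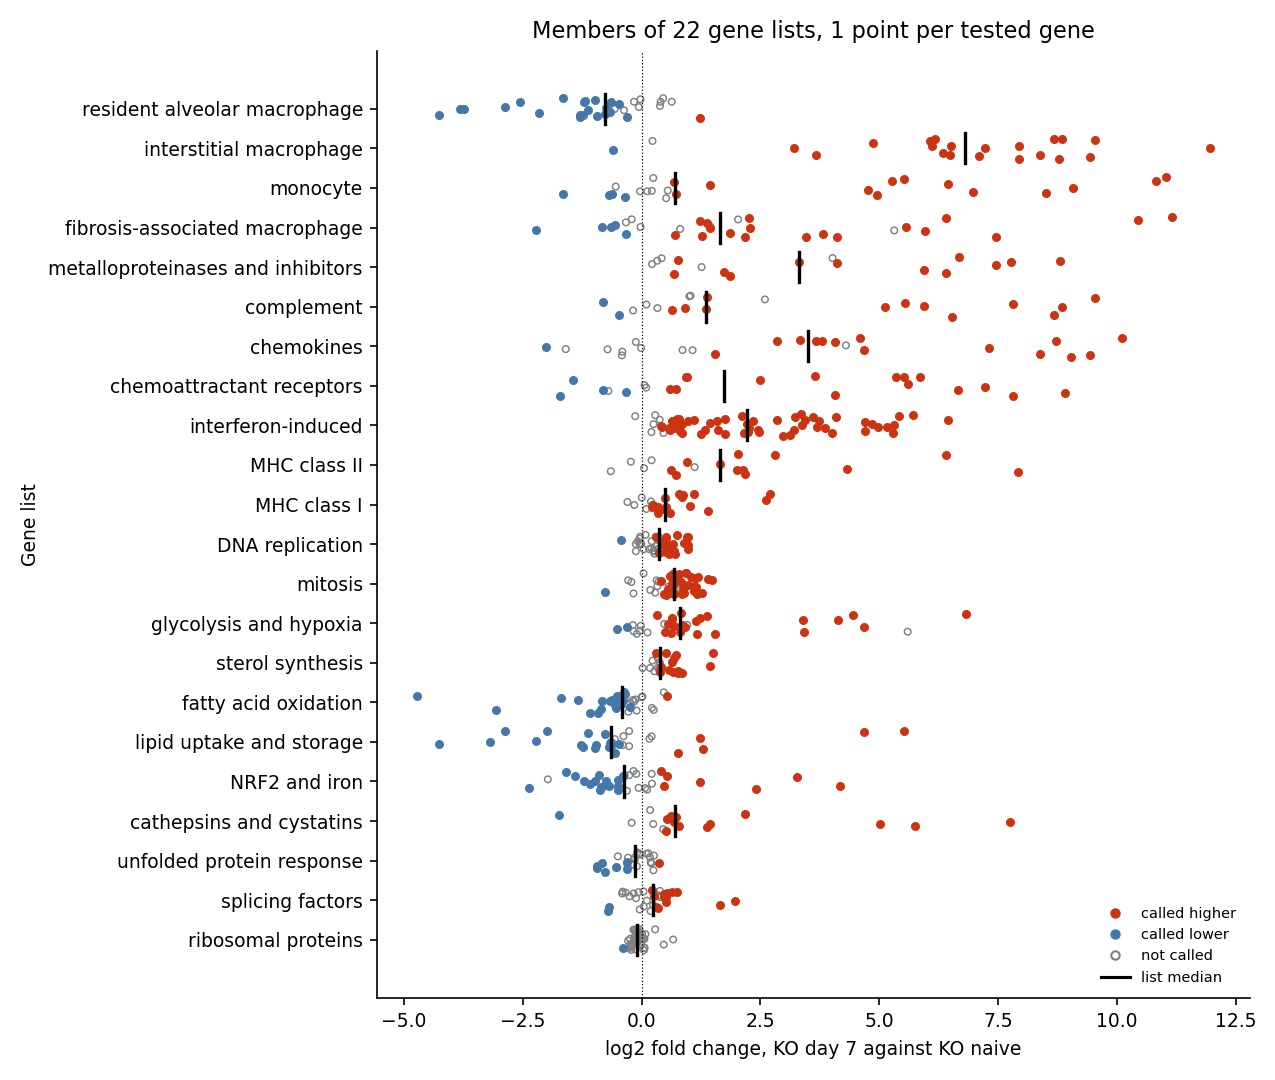
Log2 fold change, KO day 7 against KO naive, of each tested member of 22 gene lists, with 1 point per gene, called genes filled and a bar at each list's median. The medians of the interstitial macrophage (6.81), chemokine (3.49) and metalloproteinase (3.31, or 1.87 with members at 0 in naive mice at their bound) lists lie highest as drawn and those of the resident macrophage (-0.76) and lipid uptake (-0.64) lists lowest.

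Genes of profibrotic macrophages mostly rose: 18 of 30 did and 5 fell (median 1.66). Thbs1, thrombospondin 1, which binds matrix and activates latent TGF-beta, was at 0.161, 0.0483 and 0.0231 CPM in naive mice and at 163, 266 and 131 CPM at day 7 (11.16, SE 1.22, adjusted p 7.4e-07). Mmp14, a membrane-bound collagenase, was at 2.25, 1.33 and 2.24 CPM and then at 367, 447 and 215 CPM (7.46, SE 0.68, adjusted p 6.8e-08). Pdgfa, a growth factor for fibroblasts, was at 0.23, 0 and 0.185 CPM and then at 8.51, 8.31 and 3.62 CPM. Each was above the naive range in all 3 mice of day 7, and mouse 2 or mouse 1 was highest. Arg1, arginase 1, was highest in mouse 2 (0.322, 0.145 and 0.392 CPM in naive mice, 333, 704 and 177 CPM at day 7). Fn1, fibronectin, led the gains in CPM (439.9, 805 and 576 CPM, then 5157, 8735 and 6112 CPM). Tgfb1 itself fell, from 642, 623 and 642 CPM to 489, 506 and 518.7 CPM (-0.33, SE 0.07, adjusted p 0.0013). In limma-voom the calls of Thbs1 and Arg1 ended (adjusted p 0.053 and 0.078). Igf1, a growth factor, was called only without mouse 1 of the naive mice (1.17, edgeR adjusted p 0.047) or with the 2 groups fitted alone (0.82, adjusted p 0.022), and not otherwise (76.5, 38.4 and 44.1 CPM, then 91.2, 109 and 78.9 CPM).

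Of 22 growth factor genes 9 rose and 3 fell (median 1.27). Pdgfb went from 2.55, 5.12 and 3.21 CPM to 22.1, 21.9 and 8.89 CPM and Csf1 from 1.1, 1.43 and 0.923 CPM to 13.4, 18.2 and 6.29 CPM. Both were above the naive range in every day 7 mouse, with mouse 3 lowest. Hgf, a growth factor for epithelium, went from 6.62, 8.55 and 7.66 CPM to 23.9, 24.3 and 22.8 CPM. Of 17 matrix metalloproteinases, ADAM proteases and their inhibitors, 12 rose and 0 fell, with a median of 3.31, or 1.87 with the 2 members at 0 in naive mice set to their bound. Beside Mmp14, Adam8, a sheddase of leukocytes, rose from 0.368, 0.193 and 0.115 CPM to 124, 137 and 46.3 CPM (8.80, SE 0.74, adjusted p 2.7e-08). The inhibitors Timp1 (0.046, 0.121 and 0.0923 CPM, then 6.04, 13.7 and 3.06 CPM) and Timp2 (124, 102 and 114 CPM, then 327 to 479.9 CPM) rose as well.

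In coagulation and fibrinolysis 7 of 18 genes rose and 2 fell (median 0.93). Anxa2, which binds plasminogen at the cell surface, fell from 1913, 2046 and 2030 CPM to 1261, 1333 and 1496 CPM (-0.55, SE 0.10, adjusted p 0.00018). Plau, the urokinase that activates plasminogen, stood at 28.9, 27.6 and 28.1 CPM in naive mice and at 95.6, 123 and 59.8 CPM at day 7 (1.72, SE 0.24, adjusted p 1.2e-05). The groups did not overlap for either gene. The receptor of urokinase, Plaur, was not called (191, 199 and 221 CPM, then 170.4, 169 and 183 CPM).

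Chemokine genes rose in 14 of 24 cases and fell in 1 (median 3.49). Ccl2, the ligand of CCR2 that draws monocytes, was at 0.069, 0.121 and 0 CPM in naive mice and at 101, 94 and 24.4 CPM at day 7. Ccl7, another CCR2 ligand, was at 0.138, 0.0966 and 0 CPM and then at 57.7, 56.5 and 14.1 CPM. Cxcl16, the ligand of CXCR6, was at 5.82, 6.88 and 6.65 CPM and then at 174, 203 and 93.9 CPM (4.61, SE 0.33, adjusted p 5.4e-09). Mouse 3 had the lowest day 7 level of all 3 ligands, and for Ccl2 and Ccl7 it was far below the others. Ccl9 rose by 3.80 (SE 0.36). Cx3cl1, fractalkine, was the ligand that fell, from 83.4, 91.8 and 83.9 CPM to 18.7, 17.1 and 28.4 CPM (-2.01, SE 0.32, adjusted p 6.7e-05), while its receptor Cx3cr1 rose. Ccl6 was abundant in both groups and not called (3980, 3787 and 3753 CPM, then 4101, 3950 and 3392 CPM).

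Chemoattractant receptors divided into 15 that rose and 4 that fell among 22 tested (median 1.73). Cmklr1, the chemerin receptor, went from 0.161, 0.314 and 0.185 CPM to 114, 135 and 74 CPM (8.92, SE 0.70, adjusted p 1.1e-08). C3ar1, the receptor of the complement fragment C3a, went from 2.55, 1.06 and 1.13 CPM to 436, 441 and 203 CPM. These receptors were low in all naive mice and high in all day 7 mice. The receptors of formyl peptides, Fpr1 and Fpr2, fell by 1.44 and 1.71, and C5ar1, the receptor of C5a, by 0.81. Fpr1 went from 330, 283 and 346 CPM to 95.4, 88.5 and 169.7 CPM. Over all 20 tested complement genes 12 rose and 2 fell (median 1.36), C5ar1 and C5ar2 being the ones that fell. The 4 receptors that fell, with P2ry14 as the fourth, became 1 without mouse 1 of day 7, when the edgeR adjusted p was 0.051 for C5ar1, 0.057 for Fpr2 and 0.19 for P2ry14. They became 2 without mouse 2, when it was 0.078 for Fpr2 and 0.13 for P2ry14. The call of P2ry14 also ended without naive mouse 1 or 3 (0.13 and 0.14), with RLE scaling (0.055) and with no expression filter (0.058). Of the complement genes, C5ar2 was not called without mouse 2 of day 7 (adjusted p 0.053).

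Among 26 genes of the IL-1 family, the inflammasome and inflammatory cytokines, 11 rose and 4 fell (median 0.41). Il1b was at 3.61, 2.83 and 9.14 CPM in naive mice and at 21.7, 31 and 22.6 CPM at day 7 (2.27, SE 0.53, adjusted p 0.0024), while Il18, the other cytokine that caspase-1 cuts, went from 188, 204 and 188 CPM to 78.6, 66.8 and 116 CPM (-1.15, SE 0.18, adjusted p 4.2e-05). The sensor Nlrp3 fell by 0.73. The adaptor Pycard rose from 36.1, 40.4 and 39.3 CPM to 109, 105 and 76.3 CPM, and caspase-1 itself, Casp1, was not called (55.5, 50.2 and 50.9 CPM, then 48.9, 37 and 42.4 CPM), except without mouse 1 of day 7 (-0.40, edgeR adjusted p 0.028) and with the library share of Rn45s, a ribosomal RNA precursor, as a covariate (-0.30, adjusted p 0.03). The groups did not overlap for Il1b, Il18, Nlrp3 or Pycard.

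Genes of eicosanoid synthesis divided into 6 that rose and 6 that fell among 21 (median 0.05). Those of the leukotriene branch that were called fell. Alox5, the 5-lipoxygenase, went from 426, 459 and 432.7 CPM to 206, 189.7 and 307 CPM (-0.91, SE 0.16, adjusted p 0.00018), and Ltc4s, the leukotriene C4 synthase, from 153, 142 and 150.1 CPM to 36.2, 38.8 and 49.1 CPM (-1.84, SE 0.25, adjusted p 1.0e-05). Lta4h, which makes leukotriene B4, fell by 0.59, and Alox5ap, the activating protein of 5-lipoxygenase, was not called (0.02, SE 0.13). Ptgs1, the cyclooxygenase COX-1, rose from 14.7, 3.84 and 6.05 CPM to 80.3, 79.5 and 102 CPM (3.42, SE 0.46, adjusted p 1.1e-05). Groups did not overlap for the called genes named here. Pla2g7, which breaks down platelet-activating factor, went from 4.46, 5.19 and 6.05 CPM to 41.6, 75.5 and 28.3 CPM.

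Receptors and bridging molecules for apoptotic cells gave 11 that rose and 5 that fell of 25 (median 0.00). The receptor tyrosine kinases Mertk and Axl and their ligand protein S, Pros1, fell, and Pros1 went from 316, 330.1 and 331 CPM to 124, 137 and 177 CPM (-1.16, SE 0.15, adjusted p 6.3e-06). Gas6, the other ligand of these receptors, rose from 0.115, 0.459 and 0.0923 CPM to 16.8, 22.3 and 5.82 CPM (6.07, SE 0.66, adjusted p 7.0e-07). Mfge8, which bridges phosphatidylserine to integrins, rose from 19.9, 14.5 and 13.1 CPM to 98.7, 143 and 96.2 CPM, and the integrin chains Itgav and Itgb5 rose by 1.04 and 1.02. None of these genes overlapped between groups.

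Alternative activation genes gave 12 that rose and 7 that fell of 25 (median 0.94). Mgl2, the lectin CD301b, was at 0.207, 0.0725 and 0.346 CPM in naive mice and at 55.3, 38.1 and 21.1 CPM at day 7 (7.48, SE 0.55, adjusted p 6.0e-09), and Il4ra, the receptor chain of IL-4 and IL-13, rose from 159, 158 and 166 CPM to 271, 339.5 and 313 CPM. Mrc1, the mannose receptor CD206, fell from 1818, 1823 and 1752 CPM to 1014, 1141 and 1269 CPM (-0.66, SE 0.15, adjusted p 0.0017). The groups did not overlap for any of the 3.

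Interferon-stimulated genes rose as a group in KO mice: 53 of 59 rose and 0 fell, with a median log2 fold change of 2.22. In WT mice 55 of the 59 rose and 1 fell over the same interval, against 20.2% of all tested genes called higher and 15.3% called lower in WT. Type I and type II interferons act through STAT and IRF factors that bind interferon-stimulated response elements near gene starts. The 250 bases before the start of 4 members are printed, 5′ to 3′ on the gene's strand. These are the members called higher that hold such an element and have the smallest p in edgeR. Each match to GAAA, any 2 bases and GAAA again, on either strand, is in capitals. The sequences are from RefSeq on build GRCm38.p6, and all 4 genes lie on the minus strand, Oas1a at chr5:120907526-120907775, Cxcl10 at chr5:92348890-92349139, Irgm1 at chr11:48871421-48871670 and Oas1g at chr5:120887614-120887863.
Oas1a: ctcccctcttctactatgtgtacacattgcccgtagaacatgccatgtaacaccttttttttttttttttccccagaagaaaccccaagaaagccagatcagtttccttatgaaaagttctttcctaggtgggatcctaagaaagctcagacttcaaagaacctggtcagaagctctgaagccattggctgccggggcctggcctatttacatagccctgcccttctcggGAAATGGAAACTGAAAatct
Cxcl10: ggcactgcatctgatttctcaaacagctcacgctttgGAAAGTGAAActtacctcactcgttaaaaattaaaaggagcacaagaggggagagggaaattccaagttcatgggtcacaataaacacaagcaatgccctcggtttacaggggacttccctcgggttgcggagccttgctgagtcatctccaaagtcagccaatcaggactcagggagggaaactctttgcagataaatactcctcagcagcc
Irgm1: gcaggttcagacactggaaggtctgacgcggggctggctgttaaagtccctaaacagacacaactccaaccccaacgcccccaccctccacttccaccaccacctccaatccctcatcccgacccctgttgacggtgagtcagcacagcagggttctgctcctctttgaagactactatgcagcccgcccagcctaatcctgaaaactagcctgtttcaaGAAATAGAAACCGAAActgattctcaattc
Oas1g: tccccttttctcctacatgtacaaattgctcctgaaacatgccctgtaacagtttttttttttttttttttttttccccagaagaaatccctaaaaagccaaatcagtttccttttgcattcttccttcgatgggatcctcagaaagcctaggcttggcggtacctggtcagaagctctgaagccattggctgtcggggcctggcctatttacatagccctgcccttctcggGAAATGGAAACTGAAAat
In Oas1a, Irgm1 and Oas1g a pair of overlapping matches ends close to the start, and in Cxcl10 the match lies 213 bases before it. Of the 59 tested members 44 matched a promoter in the RefSeq table, and 21 of these (47.7%) held the motif, including 20 of the 39 called higher. Over all 27025 promoters of the same length 821 (3.04%) held it, and over the 9613 tested genes with a promoter 263 (2.74%) did. A match is a description of the letters and does not show binding.

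Oas1a, an enzyme that senses double-stranded RNA, was at 27.3, 22.9 and 23.6 CPM in naive mice and at 126, 135 and 116 CPM at day 7 (2.35, SE 0.23, adjusted p 1.4e-07). Its near copy Oas1g was at 2.14, 0.411 and 0.577 CPM and then at 36.7, 34.2 and 27.7 CPM, and reads shared between the 2 genes make each uncertain. Irgm1, a GTPase that acts on phagosomes, was at 19.7, 16.6 and 21.6 CPM and then at 59.9, 58 and 54.7 CPM (1.58, SE 0.17, adjusted p 8.9e-07). The 3 day 7 mice were alike in these genes, and mouse 3 was not set apart. Cxcl10, a chemokine for T cells, was at 1.66, 1.59 and 2.35 CPM and then at 12.5, 15.5 and 12.4 CPM (2.85, SE 0.29). Oasl2 went from 2.67, 1.09 and 2.03 CPM to 68.8, 91.2 and 70.6 CPM (5.31, SE 0.55), and Irf9, a DNA-binding factor of the type I interferon response, from 20.8, 19.2 and 17.8 CPM to 55.9, 56.5 and 62.8 CPM. The smallest changes were in Trim25 (-0.13) and the RNA sensor Ifih1 (0.25), which were not called.

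Genes of antigen presentation were read in both MHC classes. For MHC class II and its partners 12 of 17 rose and 0 fell (median 1.66). H2-Eb1, a class II beta chain, was at 77.1, 212 and 170.5 CPM in naive mice and at 1306, 1175 and 736 CPM at day 7 (2.81, SE 0.53, adjusted p 0.00037). H2-Ab1 was at 163, 443 and 379.6 CPM and then at 1736, 1615 and 1002 CPM. Naive mouse 1 was below the other naive mice for both, and the groups did not overlap. Cd86, a costimulatory ligand for T cells, went from 7.47, 9.57 and 8.98 CPM to 37.6, 36.2 and 32 CPM, while its relative Cd80 was not called (7.45, 10.8 and 10.2 CPM, then 9.81, 10.4 and 9.22 CPM). Ciita, the coactivator of class II genes, was higher on average but not called (7.4, 19 and 15.3 CPM, then 25.2, 33.2 and 32 CPM, adjusted p 0.11), except with the 2 groups fitted alone (1.12, adjusted p 0.013). Dendritic cells carry much class II. Of 25 tested genes of these cells, 13 rose, 9 were not called and 3 fell, namely Batf3, Wdfy4 and Sirpb1b. The part of these cells in the class II levels was not tested. For MHC class I and peptide loading 17 of 23 rose and 0 fell (median 0.49). The 17 became 13 without naive mouse 1, naive mouse 2 or mouse 1 of day 7, and 19 with the 2 groups fitted alone. Without mouse 3 of day 7, 15 rose and 1 fell. Nlrc5, the coactivator of class I genes, rose from 3.73, 2.68 and 2.65 CPM to 17.4, 23.3 and 18.5 CPM, and Tap1, a peptide transporter, from 45.5, 40.9 and 50.9 CPM to 118, 123 and 122 CPM.

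Genes of cathepsins, related proteases and cystatins rose in 13 of 18 cases and fell in 1 (median 0.70). The cystatins Cst3 and Cst7, which are not proteases, were among those that rose. Ctsb went from 1822, 1881 and 1885 CPM to 5157, 5852 and 3545 CPM, and Lgmn, legumain, from 299.8, 277 and 284 CPM to 1458, 1551 and 910 CPM. Ctsf was the one that fell, from 23.6, 36 and 28.4 CPM to 7.96, 9.29 and 9.19 CPM (-1.73, SE 0.21, adjusted p 3.4e-06). The groups did not overlap for any of the 3.

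Cell cycle genes were higher at day 7 by small amounts. Of 47 genes of G2 and mitosis 33 rose and 1 fell (median 0.69), and of 47 genes of G1 and S phase 20 rose and 1 fell (median 0.36). Without mouse 3 of day 7 the count of 20 became 13. Plk1, a mitotic kinase, was at 18.7, 17.1 and 20.1 CPM in naive mice and at 54.2, 44.3 and 47.9 CPM at day 7 (1.39, SE 0.18, adjusted p 8.4e-06). Ccna2, cyclin A2, was at 36.5, 33.7 and 41.7 CPM and then at 92.1, 65.4 and 93 CPM, and Rrm1, a ribonucleotide reductase chain, at 93.1, 83.8 and 99.6 CPM and then at 149.5, 116 and 169.7 CPM. All day 7 mice were above all naive mice, and mouse 2 was the lowest of them. Mki67, the proliferation antigen Ki-67, varied within both groups and was not called (74.2, 42 and 53.1 CPM, then 40.8, 87 and 78.8 CPM), nor was the replication clamp Pcna (-0.04, SE 0.09).

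Sterol synthesis genes rose in 14 of 25 cases and fell in 0 (median 0.39). The 14 became 8 without mouse 1 of the naive mice, 9 without mouse 2 of day 7 and 22 with the 2 groups fitted alone. Idi1, an isomerase of isoprenoid precursors, went from 74.1, 67.1 and 81.8 CPM to 132, 139 and 130.5 CPM (0.85, SE 0.20, adjusted p 0.0027). Sc5d, a sterol desaturase, went from 28.2, 24.2 and 29.2 CPM to 47.1, 49.3 and 42.4 CPM. Both were higher in every day 7 mouse. Srebf2, the factor that drives this pathway, was not called (0.18). In WT mice all 25 were called higher over the same interval (20.2% of all genes were), with a median of 0.89, and the difference between the genotypes was called for 0 of the 25 (median difference -0.39). Over all genes that difference was called for 1 gene by edgeR, with 776 genes under an unadjusted p of 0.05.

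Circadian clock genes, of the core and beyond it, fell in 7 of 18 cases and rose in 1 (median -0.23). The 7 included Bhlhe40 and Bhlhe41, which are also in the resident macrophage list. The sources used here do not give the hour of sampling. Cry1 went from 41, 44.3 and 44.6 CPM to 17.3, 13.1 and 20.9 CPM (-1.34, SE 0.26, adjusted p 0.0005), and Arntl, which encodes BMAL1, from 11.8, 14.2 and 12.3 CPM to 7.99, 6.28 and 7.17 CPM. Neither overlapped between groups. Of 50 ribosomal protein genes 0 rose and 1 fell, with a median of -0.09. The 1 became 0 on leaving out any of the 6 mice, 6 with both groups fitted alone and 4 with the Rn45s share as a covariate.

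Because the mice lack Siglec-F, the other sialic acid-binding receptors were read as a family. Of 7 tested, 0 rose and 3 fell: Siglece, Mag and Cd22 (median of the 7, -0.90). Cd22, a receptor with inhibitory motifs best known from B cells, was at 209, 204 and 197 CPM in naive mice and at 86.5, 117 and 122 CPM at day 7 (-0.91, SE 0.12, adjusted p 9.1e-06). Siglece, which also carries inhibitory motifs, was at 49.3, 68.3 and 61.2 CPM and then at 28.8, 22.4 and 33.5 CPM (-1.08, SE 0.37, adjusted p 0.027). Both genes were lower in every day 7 mouse. The call of Siglece ended without mouse 2 or 3 of the naive mice (edgeR adjusted p 0.087 and 0.063) or mouse 1 or 2 of day 7 (0.068 and 0.11). Cd22 was lower at day 7 while the summed B cell genes, read without it, were higher. Siglec1, an adhesion receptor without inhibitory motifs, was at 599.5, 557 and 555 CPM and then at 604, 729 and 921 CPM, called only without mouse 1 of day 7 (0.53, edgeR adjusted p 0.04) or with the 2 groups fitted alone (0.40, adjusted p 0.039). Not called either was Cd33 (-0.25, SE 0.15).

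A list of Fc gamma receptors, paired receptors and the phosphatases they recruit, which holds activating members too, rose in 15 of 28 cases and fell in 4 (median 0.36). The 15 became 10 without mouse 2 of the naive mice and 19 with the compared groups fitted alone. Fcgr2b, the inhibitory Fc receptor, went from 112, 108 and 107 CPM to 352, 406 and 246 CPM (1.62, SE 0.24, adjusted p 3.4e-05). Lilrb4a went from 274, 250.3 and 262 CPM to 648, 640.3 and 499 CPM, and Ceacam1 from 7.54, 2.29 and 2.72 CPM to 39.7, 49.4 and 47.3 CPM. These were higher in each day 7 mouse. Sirpa, the receptor of CD47, fell from 1886, 1908 and 1878 CPM to 1275, 1386 and 1567 CPM. The phosphatase Ptpn6, which encodes SHP-1 and acts downstream of such receptors, was not called (394, 402 and 385 CPM, then 323, 353 and 401 CPM). Of 9 genes of the Ms4a family 6 rose and 1 fell (median 3.20), and Ms4a6c went from 21.7, 22.3 and 23 CPM to 232, 237 and 221 CPM.

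The response of KO mice was set beside that of WT mice, which shares no mice with it. Of the 2485 genes called higher in KO, 2429 (97.7%) had the same sign in WT and 1952 (78.6%) were called higher there. Of the 1823 called lower, 1766 (96.9%) had the same sign and 1288 (70.7%) were called lower. The median log2 fold change of the KO genes called higher was 1.10 in KO and 1.02 in WT, and that of the genes called lower -0.66 and -0.59. Genes called in KO were selected in KO, so their KO medians are a description.

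**Figure D4:**
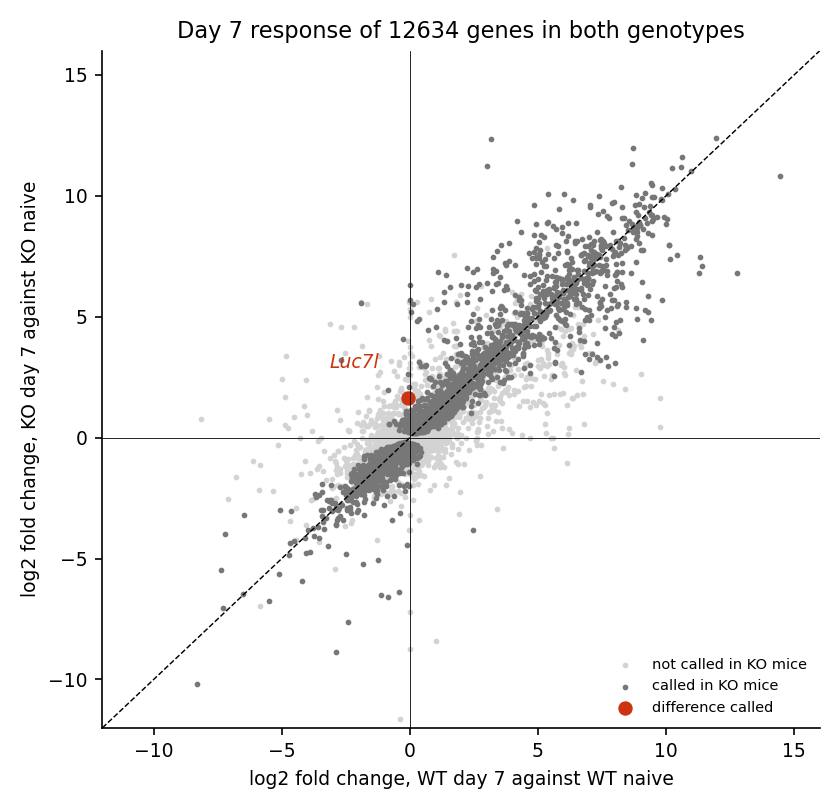
Log2 fold change at day 7 in WT mice (horizontal) and in KO mice (vertical) for the 12634 tested genes, with 1 point per gene, the line of equal response drawn, and Luc7l marked. Luc7l lies at 1.66 in KO and -0.06 in WT.

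A direct test of the difference between the 2 responses called 1 gene (0.00792% of 12634), Luc7l (mm10, ENSMUSG00000024188.16, chr17:26252896-26285504), a component of the U1 snRNP that recognises 5′ splice sites. Luc7l was at 10.2, 11 and 12.9 CPM in naive KO mice and at 37.3, 31 and 39.2 CPM in KO mice of day 7. In WT mice it was at 36.8, 25.8 and 33.5 CPM and then at 33.3, 34.1 and 24.6 CPM. The naive KO mice were thus the low group, and the other 3 groups overlapped. The log2 fold change was 1.66 (SE 0.18) in KO and -0.06 in WT, and the difference of 1.72 had an adjusted p of 0.0091 in edgeR. That adjusted p was 0.063 without mouse 1 and 0.054 without mouse 2 of the naive KO mice, and between 3.4e-07 and 0.047 under the other settings. The count of 1 gene became 39 in DESeq2, of which Luc7l was 1, and 0 without either of those 2 mice.

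Other splicing genes were read from the list that holds Luc7l. That list was written with earlier results of these data known. Its counts and mean levels in KO and WT mice are therefore a description and not a test of the genotypes. In KO mice 13 of 31 rose and 2 fell (median 0.24), and in WT mice 2 rose and 2 fell (median -0.12), where 20.2% of all genes rose and 15.3% fell. Without mouse 2 of the naive KO mice the count of 13 became 8. Rsrp1, an arginine and serine rich protein, was at 28.2, 22.4 and 53.8 CPM in naive KO mice and at 138, 129 and 143 CPM at day 7, and its log2 fold change was 1.97 (SE 0.44) in KO and -0.85 in WT. Srsf11, a splicing factor, was at 25.6, 22.5 and 27.6 CPM and then at 39.5, 42.3 and 45.1 CPM (0.74 in KO, -0.29 in WT), and Tra2b at 69.3, 70.4 and 79.5 CPM and then at 101, 101 and 116 CPM (0.53 in KO, -0.27 in WT). These genes rose in KO with no overlap between groups, but their differences between genotypes were not called (adjusted p 0.19, 0.14 and 0.19 in edgeR). Mean log2(CPM + 1) of the whole list was 6.025, 5.989 and 6.071 in naive KO mice. In naive WT mice it was 6.248, 6.351 and 6.369. At day 7 it was 6.195, 6.272 and 6.307 in KO mice and 6.145, 6.297 and 6.22 in WT mice. Over the list, naive KO mice were thus the low group, and the other groups overlapped. Because of how the list was written, this low level is not independent support for that of Luc7l. The helicase Ddx5 fell in KO, by 0.70. Of the genes called higher in KO, 5 were called lower in WT, namely Ctdsp2, Luc7l3, Rbm39, Prpf39 and Vgll4, and 3 called lower in KO were called higher in WT, namely Nupl2, Rbm34 and Lgals8. Without mouse 2 of the naive KO mice the KO calls of Ctdsp2, Prpf39, Rbm39 and Rbm34 ended (adjusted p 0.19, 0.11, 0.095 and 0.086 in edgeR), and each of these 4 calls ended in 4 or more of the 6 fits that left out 1 mouse. Without mouse 3 of day 7 that of Vgll4 ended (adjusted p 0.076). The 8 genes were named after their values were seen, and the difference was called for none of these 8 (smallest adjusted p 0.058, in edgeR, for Vgll4).

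The day 7 state was also set beside later KO mice, using the same day 7 mice, so these comparisons share mice with the one above. From day 7 to day 14, 858 genes (6.79%) rose and 1039 (8.22%) fell, and from day 7 to day 21, 904 (7.16%) rose and 976 (7.73%) fell. The 1897 calls at day 14 became 899 without mouse 1 of day 7, 1130 without mouse 2 and 1014 without mouse 3 of day 14. The 1880 calls at day 21 became 973 without mouse 1 of day 7, and 426 when the compared groups were fitted alone.

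Cell cycle genes were lower at both later days. Of 47 mitotic genes 39 fell from day 7 to day 14 and 42 from day 7 to day 21, and of 47 replication genes 34 and 37 fell. Mcm5, a subunit of the replicative helicase, was at 79.8, 62.6 and 91.1 CPM on day 7, at 36.6, 33.1 and 32.2 CPM on day 14 and at 35.5, 29.5 and 31.4 CPM on day 21, against 57.8, 53 and 58.8 CPM in naive mice. Lmnb1, a lamin of the nuclear envelope, was at 74.9, 64.9 and 86.9 CPM on day 7, 31.8, 32.6 and 29.5 CPM on day 14 and 24.6, 28.1 and 33.2 CPM on day 21. Both later groups lay below the day 7 mice. Interferon genes fell in 33 of 59 cases to day 14 and in 34 to day 21, and chemokines in 10 and 9 of 24. Ccl2 was at 3.95, 1.29 and 0.359 CPM on day 14 and 0.596, 7.57 and 0.854 CPM on day 21.

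Resident macrophage genes moved back up: 13 of 32 rose from day 7 to day 14 and 15 to day 21, and 0 fell. Pparg was at 108, 163 and 190.3 CPM on day 14 and 182, 117 and 144 CPM on day 21. Interstitial macrophage genes fell in 14 of 22 cases to day 14 and in 13 to day 21. Stab1 was at 32.5, 19.4 and 8.05 CPM on day 14 and 4.93, 24.1 and 16.9 CPM on day 21. The chain C1qb, in the same list, was not called at either day (-1.15 and -0.63), nor was Fn1 (0.42 and 0.57). Sterol genes rose in 20 of 25 cases from day 7 to day 14 and in 2 to day 21.

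**Figure D5:**
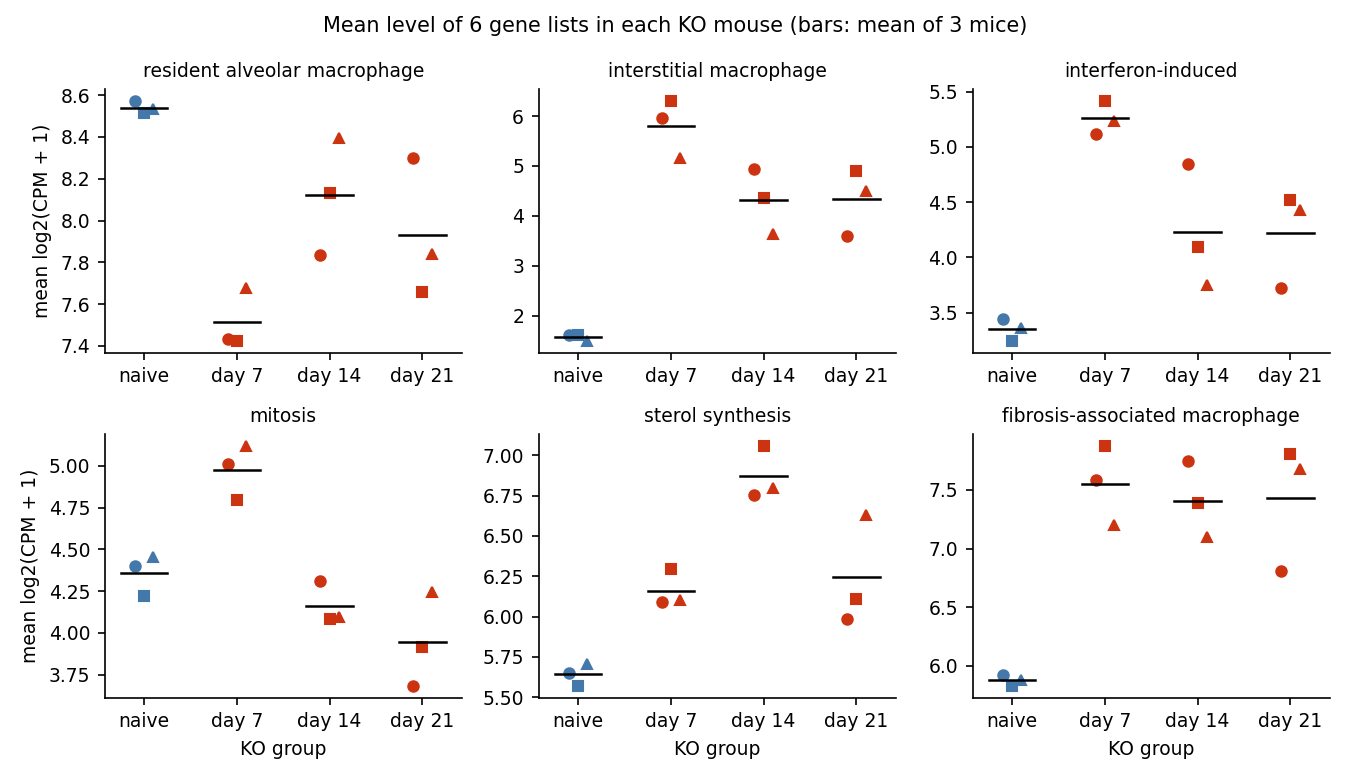
Mean log2(CPM + 1) of 6 gene lists in each KO mouse in naive mice and on days 7, 14 and 21 after bleomycin, with a bar at the mean of each group of 3 mice. The mean over mice of the resident list is lowest at day 7, and those of the interferon, mitotic and interstitial lists are highest there.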

How the data were processed

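RNA of airspace macrophages from 24 mice in 8 groups of 3 was measured. Per the labels' protocols, 200 ng of RNA went into Universal Plus mRNA-Seq library preparation, and libraries were read as 150 bp paired ends. Per the submitters' processing notes, bcl2fastq and build mm10 were used, with DESeq2 1.42.0 and limma 3.58.1. The sources used here do not give the aligner, the counter or the use of strand, and genes that overlap or lie antisense to another are uncertain. The authors deposited expected counts per gene in 1 column per mouse, although the labels list 48 samples, 2 per mouse, and 24 further columns of other samples were not used. In the 6 compared libraries 3.28% to 3.85% of the deposited expected counts were not whole, and all were rounded. Rn45s held 2.44% to 4.75% of the counts of these 6 libraries, and 0.743% to 8.19% over all 24. The 24411 genes of the table included 23334 with a position in the GENCODE M21 table.

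Counts were tested with edgeR 4.0.16 in R 4.3.3 on rounded counts with TMM scaling. Genes were kept by filterByExpr, set to min.count 10 and min.total.count 15. A mean per group was fitted over all 24 mice (16 residual degrees of freedom, prior 4.4, common biological coefficient of variation 0.21). The quasi-likelihood test gave p-values adjusted by Benjamini-Hochberg within each comparison, with a threshold of 0.05. Log2 fold changes in text are edgeR's, in brackets with their standard error (SE). Where a group held 0 counts, a bound was set against 3 counts over the group, which covers counting error only. The fit of KO day 7 against KO naive was tested on simulated counts with known changes in 67, 67 and 66 genes. It recovered 32.8% of 1.5-fold, 73.1% of 2-fold and 97% of 4-fold changes, and 5 of its 140 calls were false. The simulation changed few genes and gave each gene the same spread in all groups. In the real counts day 7 mice differed more than naive mice, so these rates may not hold there. The difference from WT was not simulated. Its median standard error over genes was 0.251, against 0.178 for KO day 7 against KO naive. Counts of naive KO pairs of mice differed by 13.4 to 25.5 times sampling noise (chi-square per degree of freedom) and those of day 7 pairs by 65.1 to 79 times, so no library was a repeat of another. Same-numbered mice did not deviate together (Pearson r over genes between -0.101 and 0.029), so the numbers do not pair mice.

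Gene lists and named genes were chosen with earlier results of these data known. Named were the genes with the highest and lowest fold changes or the largest gain and loss in CPM, list members with the smallest p in each direction, abundant members not called, and a fixed panel of macrophage genes. Some genes that met the rule are not reported here. Alternatives were DESeq2 1.42.0, limma-voom 3.58.1, RLE scaling, no expression filter, the compared groups fitted alone, mouse number as a block, the Rn45s share as a covariate, and leaving out each mouse. Figures were drawn with matplotlib 3.10.9 in Python 3.11.15.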

Additional observations from a re-analysis of the deposited data

Results flagged for a closer look

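The day 7 response of Luc7l differed between genotypes by 1.72 on the log2 scale in the test of the difference itself (adjusted p 0.0091 in edgeR). It was the 1 gene called by that test, and all 3 naive KO mice (10.2, 11 and 12.9 CPM) lay below all naive WT mice (36.8, 25.8 and 33.5 CPM). The adjusted p was 0.063 without mouse 1 and 0.054 without mouse 2 of the naive KO mice.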

How the results depend on the processing

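No called gene of KO day 7 against KO naive was called in the opposite direction under any alternative. Its 4308 calls became 4641 in DESeq2, 4507 in limma-voom, 4307 with RLE scaling, 3979 without an expression filter, 4963 with both groups fitted alone and 4899 with the Rn45s share as a covariate. With the mouse number as a replicate block there were 4287 calls, of which 4164 were shared with the fit without it, and among the genes named the block ended only the call of Ctdsp2 (adjusted p 0.059). The numbers do not pair the mice. No naive mouse correlated best with the day 7 mouse of its own number, and of the day 7 mice only mouse 3 did so with the naive mice. Leaving out 1 mouse gave 3375 to 3968 calls. Of the 187 genes named, 166 kept their side of the threshold under all alternatives in which they were tested and 0 reversed.

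The 1 gene called for the difference from WT became 39 in DESeq2, 3 in limma-voom, 3 without a filter, 3 with the 4 groups alone, 2 with RLE scaling, 2 with the Rn45s share and 1 with the block. Leaving out 1 mouse gave 0 to 3, the 0 arising without naive KO mouse 1 or 2, where 634 and 689 genes were under an unadjusted p of 0.05 in edgeR. From day 7 to day 14 the 1897 calls ranged from 899 to 2027 on leaving out 1 mouse. From day 7 to day 21 the 1880 calls ranged from 973 to 1932, and were 426 with both groups alone, of which 32.4% were higher against 48.1%. The cause of these shifts was not tested. Scaling by RLE moved the median over all genes by under 0.1. With 3 mice a group, small changes may have been missed.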

Other observations

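Targets of the LXR receptors and cholesterol efflux genes gave 9 that rose and 9 that fell of 25 tested in KO mice at day 7 (median log2 fold change 0.04). Among the lipid carriers, Apoe was at 27.6, 52.8 and 18 CPM in naive mice and at 552, 1693 and 646 CPM at day 7 (4.88, SE 0.66, adjusted p 1.1e-05 in edgeR), highest in mouse 2. The exporter Abcg1 fell from 3172, 3422 and 3244 CPM to 1163, 1168 and 1666 CPM, while the exporter Abca1 was not called (129.8, 208 and 155 CPM, then 158, 218 and 133 CPM). The fatty acid desaturase Fads1 rose from 18.1, 17.4 and 17.5 CPM to 83.9, 82.1 and 61.9 CPM, and the receptor gene Nr1h2 fell by 0.43.

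C-type lectin receptors gave 8 that rose and 5 that fell of 19 (median 0.28). Clec5a rose from 65.1, 77.4 and 67.1 CPM to 187, 161 and 160.1 CPM and Clec4n, which encodes dectin-2, from 419, 449 and 447 CPM to 737, 725 and 674 CPM. Clec4a3 fell from 141, 139.8 and 141 CPM to 77.5, 86 and 95.2 CPM, and Clec7a, which encodes dectin-1, was not called (1385, 1529 and 1468 CPM, then 1405, 1395 and 1873 CPM). Of 9 TREM receptors and adaptors, 2 rose and 2 fell. Trem2 rose from 54.9, 45.1 and 49.3 CPM to 251, 259 and 161 CPM, and its adaptor Tyrobp was not called (-0.12, SE 0.11).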
